A study of Mus musculus with 32 samples.

Results

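The genes described here are 32 members of the pathways that make cholesterol and fatty acids, of 20145 genes that the array probes could be named for. Of these, 23 belong to the sterol branch and 9 to the fatty acid branch. They were taken by name from a list of pathway genes. Each gene was read from the probe with the highest mean signal over all 32 arrays. All 32 members were well above background on every array, so no member was lost to a filter on dim probes.

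Cells make cholesterol from acetyl units through the mevalonate branch, which ends in farnesyl diphosphate, and then through squalene and lanosterol. Transcription of these enzymes is driven by SREBP2, the product of Srebf2, while SREBP1, the product of Srebf1, drives mainly the fatty acid enzymes. Both factors are held in the endoplasmic reticulum by SCAP and the INSIG proteins when membrane sterol is plentiful, and both are released to the nucleus when it is scarce.

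The samples came from 4T1-Luc tumours, a mouse mammary carcinoma line carrying luciferase, injected at a mammary site into female Balb/C mice aged 8 weeks. After a week of establishment the mice were given sunitinib at 40 mg/kg, an inhibitor of receptor tyrosine kinases, or only its vehicle of PBS with DMSO. Tumours resected at 1300 mm3 were digested in a medium that held actinomycin D. They were split by PECAM-1 beads into an endothelial (EC) fraction and the remaining bulk fraction, with 4 vehicle mice and, by a label that covers the time up to day 8, 4 sunitinib mice called sensitive and 4 called resistant. A further 8 bulk tumours were smaller, with 2 vehicle and 2 sunitinib mice at day 9 and 2 of each at 600 mm3. Values are log2 of the background-subtracted signal minus the array's 75th percentile, so a level can be compared between arrays but not between genes. A gene was called changed at an adjusted p under 0.05, from limma with Benjamini-Hochberg adjustment over all features of the comparison.

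Several features of the arrays stand beside every result. The 8 arrays of resistant mice, EC and bulk, shared slide 2 and no other group was on it, so an effect of the slide and one of resistance cannot be told apart. Sunitinib and vehicle arrays lay in different rows of the other slides, and row and treatment cannot be told apart there. In the resistant EC group 46.1% to 52.8% of probes were well above background, against 79.9% to 86.4% in the sensitive and 80.3% to 82.2% in the vehicle EC group. Bulk resistant mouse 2 stood apart from its group, with 83.2% of probes well above background against 55.3% to 58.5% on the other 3 arrays, and counts of members called in bulk resistant tumours are given with and without it. The mean level of the 10 endothelial markers lay between 1.75 and 3.42 on the EC arrays and between -4.55 and 0.19 on the bulk arrays of 1300 mm3 tumours. The EC arrays also carried macrophage markers, with 9 of the 10 listed genes well above background and a mean level between 3.43 and 6.18 (0.74 to 3.40 in bulk), and tumour epithelial markers between 1.77 and 4.29 (3.55 to 5.26 in bulk). In such tissue samples, fewer cells of a type and less RNA per cell cannot be told apart.

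**Figure D1:**
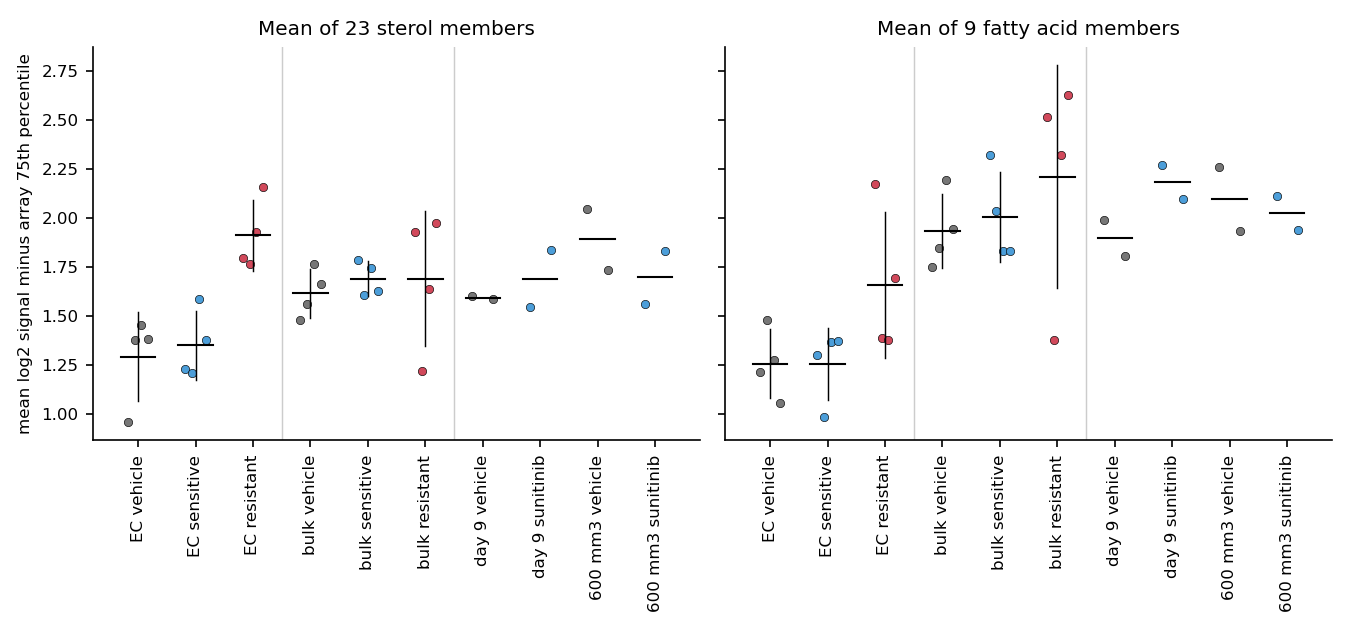
Mean level of the 23 sterol members (left) and the 9 fatty acid members (right) on each array, as log2 signal minus the array's 75th percentile; points are arrays, long bars are group means and vertical lines are ± SD for groups of 4. The resistant EC arrays lie at a mean of 1.91 for sterol members against 1.29 in vehicle and 1.35 in sensitive EC, and fatty acid members lie lower in EC than in bulk for each treatment.

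Averaged over the 23 sterol members, the level was 1.29 ± 0.23 (SD, n = 4) in vehicle EC, 1.35 ± 0.17 in sensitive EC and 1.91 ± 0.18 in resistant EC. All 4 resistant EC arrays lay above all 8 other EC arrays on this mean. In the bulk fractions the same mean was 1.62 ± 0.12 in vehicle, 1.69 ± 0.09 in sensitive and 1.69 ± 0.35 in resistant tumours (1.85 ± 0.18 without mouse 2). The 9 fatty acid members averaged 1.26 ± 0.18 in vehicle EC, 1.26 ± 0.18 in sensitive EC and 1.66 ± 0.37 in resistant EC, and 1.93 ± 0.19, 2.00 ± 0.23 and 2.21 ± 0.57 in the matching bulk fractions (2.49 ± 0.15 in resistant bulk without mouse 2). The sterol mean of resistant EC therefore lay above every bulk group's mean, while the fatty acid mean of each EC group lay below that of its bulk fraction. The plot of these means by array shows both patterns, and the sections that follow test their members one by one.

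The first comparison asked how the EC fraction of resistant tumours differed from that of vehicle tumours. Sterol genes rose: 13 of 23 were called higher and none lower, by 1.47-fold to 3.13-fold, while 3 of 9 fatty acid members were called higher and none lower. Over all 40712 features tested, 58.7% were called, 15.5% higher and 43.2% lower. Since every member is bright, a nearer background is the 20323 features well above background on every EC array, of which 29.5% were called higher. The fatty acid count lay near that share. The median log2 difference was 0.61 for sterol members and 0.44 for fatty acid members, against -0.47 for all features, 0.10 for all named genes and 0.28 for the features well above background on every EC array. Of the 32 members, 12 had all 4 resistant arrays above all 4 vehicle arrays, which 12.2% of all features showed, and no member had them all below. This share was not computed for the features well above background on every EC array, the nearer background.

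**Figure D2:**
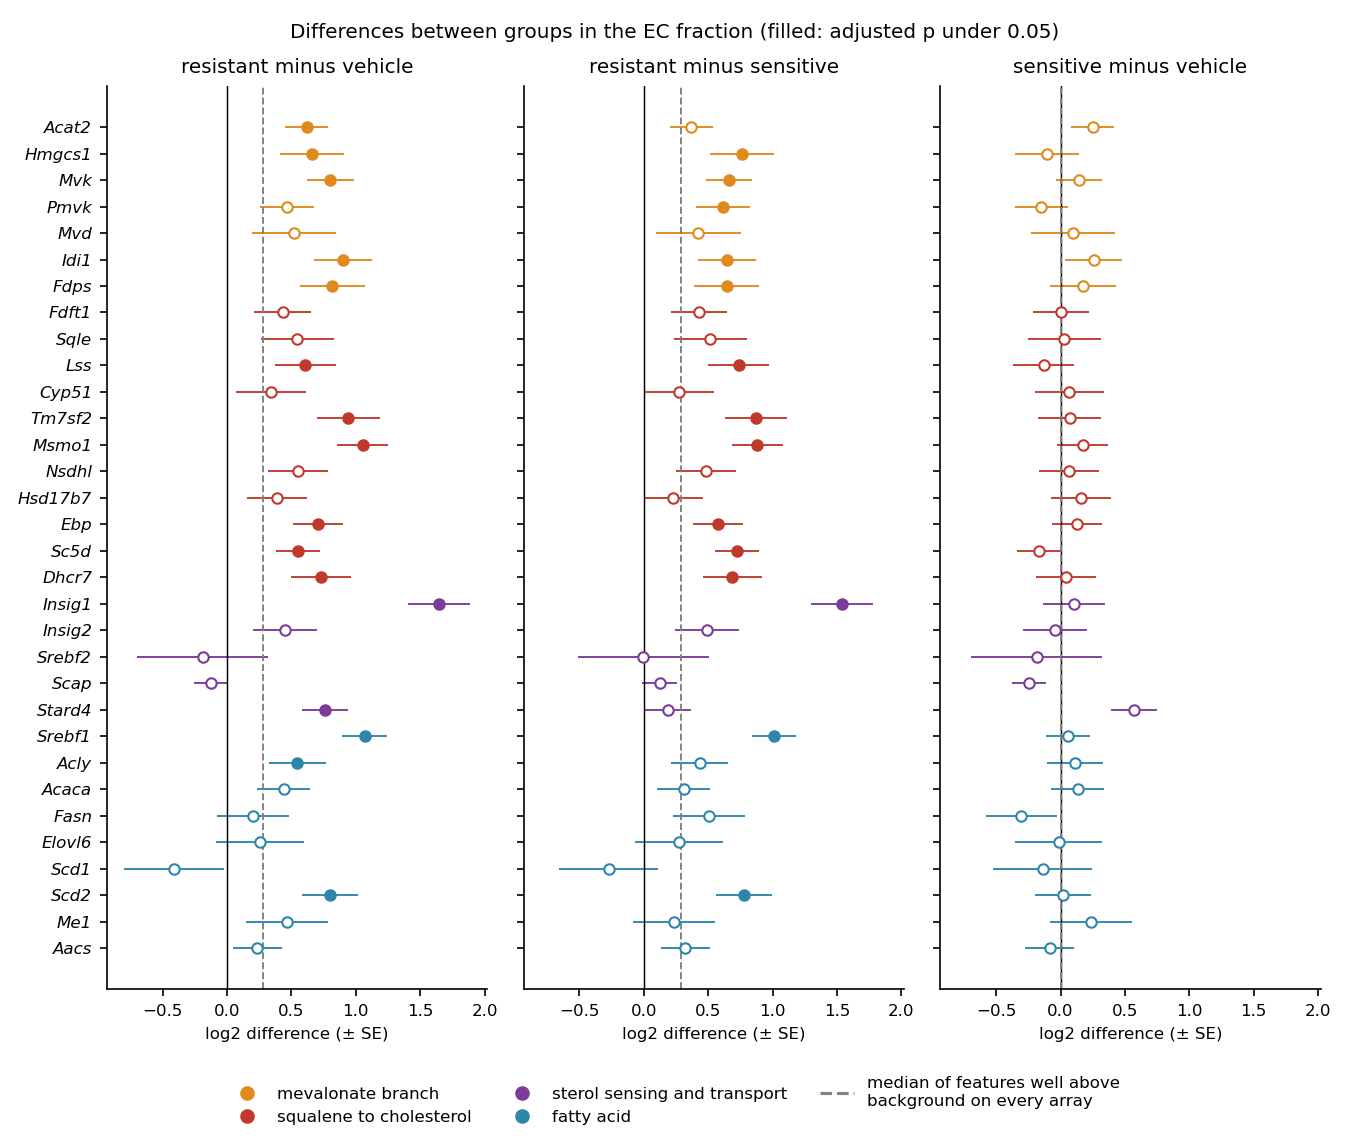
Log2 differences (± SE) of the 32 members between EC groups, coloured by pathway step; filled points have an adjusted p under 0.05, and the dashed line is the median of the features well above background on every EC array (0.28, 0.29 and 0.00 from left to right). Insig1 lies farthest right in the first 2 panels, at 1.64 and 1.54, and no point is filled in the comparison of sensitive with vehicle.

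Insig1, whose protein retains SCAP in the endoplasmic reticulum and is itself a target of SREBP, showed the largest difference. Its level was -0.80, -0.17, -0.14 and -0.30 on the vehicle EC arrays, -0.35, -0.21, -0.31 and -0.11 on the sensitive and 0.65, 1.20, 1.49 and 1.82 on the resistant. The resistant arrays did not overlap with either other group. Resistant EC was 3.13-fold higher than vehicle (log2 difference 1.64, SE 0.24, limma adjusted p = 7.02e-05). Stard4, a carrier that moves cholesterol between membranes, was called higher by 0.76 (SE 0.18), with resistant arrays at 1.40, 1.05, 1.22 and 1.69 and vehicle arrays at 0.52, 0.73, 0.47 and 0.59. Of the remaining sensors, none was called on the probe read: Srebf2 differed by -0.19 (SE 0.51), and its arrays spread from -0.72 to 1.60 in resistant EC and from 0.11 to 1.82 in vehicle EC. Scap differed by -0.12 (SE 0.13) and Insig2 by 0.45 (SE 0.25). A dimmer probe of Insig2 was called higher, at 0.94 (SE 0.27).

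In the mevalonate branch 5 of 7 members were called higher and all 7 differences were positive. Of the features well above background on every EC array, 29.5% were called higher, and their median difference was 0.28. The share of positive differences over those features was not computed. Idi1, which isomerises the isoprene unit, rose by 0.90 (SE 0.22), from 1.49, 2.21, 1.98 and 2.02 on the vehicle arrays to 3.06, 2.57, 2.56 and 3.12 on the resistant arrays. Fdps, the farnesyl diphosphate synthase, rose by 0.82 (SE 0.25), with resistant arrays between 3.98 and 4.54 and vehicle arrays between 2.76 and 3.79. Neither pair of groups overlapped. Mvk, mevalonate kinase, rose by 0.80 (SE 0.18) and Acat2, the cytosolic thiolase, by 0.62 (SE 0.17). Hmgcs1, which makes HMG-CoA, rose by 0.66 (SE 0.25), but its groups overlapped, at 3.22, 3.84, 3.65 and 3.52 in vehicle against 4.47, 3.63, 4.09 and 4.67 in resistant EC. Pmvk (0.47, SE 0.21) and Mvd (0.52, SE 0.33), the kinase and the decarboxylase that follow Mvk, were not called.

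From squalene to cholesterol, 6 of 11 members were called higher and all 11 differences were positive. The same background holds here, with 29.5% called higher, a positive median of 0.28 and no computed share of positive differences. Msmo1, a sterol methyl oxidase, rose by 1.05 (SE 0.20, limma adjusted p = 0.00057), from 2.80, 3.49, 3.21 and 3.24 on the vehicle arrays to 4.36, 3.89, 4.16 and 4.54 on the resistant arrays, with no overlap. Tm7sf2, a sterol reductase, rose by 0.94 (SE 0.24), with resistant arrays at 0.81, 1.51, 1.87 and 1.82 and vehicle arrays at 0.21, 0.47, 0.72 and 0.86, of which 1 lay above the lowest resistant array. The other 4 called were Dhcr7 (0.73), which completes cholesterol, Ebp (0.71), the sterol isomerase, Lss (0.61), which closes the ring to lanosterol, and Sc5d (0.55), the desaturase. Sqle, the squalene epoxidase, differed by 0.55 (SE 0.28) without a call, on vehicle arrays between 2.26 and 3.16 and resistant arrays between 2.81 and 3.76. Fdft1 (0.43), Cyp51 (0.34), Nsdhl (0.55) and Hsd17b7 (0.39) were not called either on the probe read. A dimmer probe of Nsdhl was called higher, at 1.12 (SE 0.18), and one of Hsd17b7 at 0.80 (SE 0.22).

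In the fatty acid branch 3 of 9 members were called higher, near the 29.5% of features well above background on every EC array. Srebf1 rose 2.10-fold (log2 difference 1.07, SE 0.17, limma adjusted p = 0.000167), from -1.76, -1.54, -1.52 and -1.98 on the vehicle arrays to -0.42, -0.37, -0.88 and -0.86 on the resistant arrays, with no overlap. Scd2, one of the stearoyl-CoA desaturases, rose by 0.80 (SE 0.22), with vehicle arrays between 3.66 and 4.23 and resistant arrays between 4.44 and 5.27. Acly, which supplies cytosolic acetyl-CoA to both branches, was called at 0.55 (SE 0.22). Fasn, the fatty acid synthase itself, differed by 0.20 (SE 0.28), on vehicle arrays at -0.96, -0.67, -1.05 and -1.58 and resistant arrays at -0.07, -1.36, -1.19 and -0.82. Scd1, the other desaturase, had the only negative difference of the branch at -0.41 (SE 0.39), and its groups overlapped from -1.14 to 0.36 in resistant and from -0.53 to 0.23 in vehicle EC. Elovl6 (0.26), Acaca (0.44), Me1 (0.46) and Aacs (0.24) were not called. Acaca has 2 dimmer probes, of which 1 was called higher, at 1.23 (SE 0.23), and the other differed by 0.12.

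The upstream sequences of a few of these genes are printed because SREBP and its partners act through sequences upstream of their target genes. RefSeq start sites of build GRCm38.p6 were matched for 26 of the 32 members, as 35 entries, and the 250 bases before each start were searched on both strands for a sterol regulatory element core (TCACNCCAC), a CCAAT box (CCAAT) and a GC box (GGGCGG). The capitals mark every match, on either strand, and no matches overlapped in the 4 sequences shown. Insig1, Msmo1 and Idi1 are among the members that rose most, and Hmgcs1 is the only matched member with the string TCACNCCAC in its window. They lie at chr5:28071162-28071411 on the plus strand (Insig1), chr8:64733579-64733828 on the minus strand (Msmo1), chr13:8885356-8885605 on the plus strand (Idi1) and chr13:119690101-119690350 on the plus strand (Hmgcs1).
Insig1: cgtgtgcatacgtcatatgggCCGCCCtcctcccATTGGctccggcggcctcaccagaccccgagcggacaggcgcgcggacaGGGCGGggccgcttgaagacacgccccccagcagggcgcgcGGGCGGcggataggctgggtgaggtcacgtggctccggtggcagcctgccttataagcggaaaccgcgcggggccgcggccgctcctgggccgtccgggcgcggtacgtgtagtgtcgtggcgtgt
Msmo1: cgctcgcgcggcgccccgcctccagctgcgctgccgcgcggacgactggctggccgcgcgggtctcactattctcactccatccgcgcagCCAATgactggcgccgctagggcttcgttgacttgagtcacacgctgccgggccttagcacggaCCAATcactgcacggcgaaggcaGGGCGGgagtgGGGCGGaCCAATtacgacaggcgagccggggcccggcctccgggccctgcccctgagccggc
Idi1: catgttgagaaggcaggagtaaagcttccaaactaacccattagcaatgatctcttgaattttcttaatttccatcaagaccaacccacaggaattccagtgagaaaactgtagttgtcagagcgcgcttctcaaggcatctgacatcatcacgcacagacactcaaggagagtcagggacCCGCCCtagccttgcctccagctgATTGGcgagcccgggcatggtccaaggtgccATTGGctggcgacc
Hmgcs1: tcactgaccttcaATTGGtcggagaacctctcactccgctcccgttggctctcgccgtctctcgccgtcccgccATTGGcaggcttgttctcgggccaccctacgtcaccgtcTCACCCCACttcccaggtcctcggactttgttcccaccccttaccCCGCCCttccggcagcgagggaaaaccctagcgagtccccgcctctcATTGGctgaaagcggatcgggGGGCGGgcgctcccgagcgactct

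The core TCACNCCAC was found in 1 of the 35 member windows (Hmgcs1) and in 1.05% of all 32851 windows of the same length. CCAAT was found in 21 of 35 member windows against 33.8% of all, and GGGCGG in 24 of 35 against 32.7% of all. The Insig1 window holds 1 CCAAT and 3 GGGCGG, that of Msmo1 holds 3 and 2, that of Idi1 holds 2 and 1, and that of Hmgcs1 holds 3 and 2. These are matches of letters in a fixed window and are no measure of binding. Other forms of the sterol regulatory element and sites outside the window were not searched.

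How the arrays were scaled bears on which members were called in resistant EC. With quantile scaling, 10 of the 16 members called against vehicle were still called, and the authors' deposited values likewise gave 10 of the 16. Insig1 was 1.61 under quantile scaling and 1.63 in the deposited values, and Srebf1 was 1.32 in the deposited values. Msmo1 was 0.61 and 0.50, Idi1 was 0.56 and 0.60, and Lss was 0.98 and 0.90. Dhcr7, Tm7sf2, Acat2, Stard4 and Mvk also stayed called under both. The 6 that lost the call under both were Hmgcs1 (0.22 and 0.11), Fdps (0.37 and 0.37), Ebp (0.17 and 0.29), Sc5d (0.26 and 0.20), Acly (0.04 and 0.07) and Scd2 (0.31 and 0.13). The median difference of fatty acid members was 0.13 under either, and the deposited values gave 0.37 for sterol members. With each of the 12 EC arrays left out in turn, Acly kept its call against vehicle in 3 fits, Lss in 4, Hmgcs1 in 6 and Dhcr7 in 10, and the other 12 members in every fit. Called higher made up 26.4% of all calls over all features in the scaling used here, 39.4% with quantile scaling, 41.6% in the deposited values and 71.1% after normexp background correction.

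The marker means of division and of adipocytes separated the resistant EC arrays from both other EC groups. Every other list overlapped with vehicle EC, sensitive EC or both, among them fibroblast, neutrophil and tumour epithelial markers. The mean level of the 10 cell cycle genes was 2.08 to 2.51 on the resistant EC arrays, against 0.61 to 1.72 in vehicle and 1.37 to 1.76 in sensitive EC, with 10 of 10 well above background. Against vehicle, 7 of 10 were called higher, where 15.5% of all features and 29.5% of those well above background on every EC array were. Counts of calls in the other marker lists are not given here. The macrophage mean was 4.06 to 6.18 in resistant EC, against 3.43 to 5.12 in vehicle and 4.24 to 5.04 in sensitive EC. The adipocyte mean, of a cell type that makes much fatty acid, was -4.17 to -3.50 in resistant EC with at most 5 of 10 markers well above background. It was -2.45 to -0.48 in vehicle EC and -2.20 to -1.64 in sensitive EC. The secretory mammary epithelial mean was -3.02 to -2.65 in resistant EC with 3 of 8 markers well above background, against -3.82 to -3.29 in vehicle and -3.43 to -1.38 in sensitive EC. The lowest level well above background was -4.68 to -3.83 on resistant EC arrays and -6.05 to -5.70 on vehicle EC arrays. The endothelial mean was 1.75 to 2.61 in resistant EC, against 2.06 to 2.42 in vehicle and 2.42 to 3.42 in sensitive EC. The T and NK cell mean was -1.25 to 0.17 in resistant EC, against -0.59 to 1.91 in vehicle and 0.024 to 1.38 in sensitive EC. The part of these cells in the members' differences was not tested.

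The second comparison set resistant against sensitive EC, in which both groups had received sunitinib. Here 12 of 23 sterol members and 2 of 9 fatty acid members were called higher and none lower, where 58.9% of all features were called, 43.6% lower and 15.3% higher, and 29.3% of those well above background on every EC array were called higher. The fatty acid count lay under that last share. Of the members, 13 were called higher in both comparisons of resistant EC, 17 in at least 1 and 15 in neither, but both comparisons use the same 4 resistant arrays. Insig1 rose 2.90-fold (1.54, SE 0.24), Srebf1 rose 2.02-fold (1.01, SE 0.17) and Msmo1 rose 1.84-fold (0.88, SE 0.20). The sensitive arrays of Srebf1 lay between -1.68 and -1.59, tightly below the resistant ones, and those of Msmo1 at 3.22, 3.16, 3.58 and 3.46 were likewise all below. Tm7sf2 (0.87), Scd2 (0.78), Hmgcs1 (0.77), Lss (0.74) and Sc5d (0.72) were also called.

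Pmvk was called in this comparison at 0.61 (SE 0.21), while Stard4 (0.19), Acat2 (0.37) and Acly (0.43) were not. Stard4 was 1.21, 1.09, 1.41 and 0.89 on the sensitive arrays, which overlapped with the resistant ones. Fasn differed by 0.51 (SE 0.28), Sqle by 0.52 (SE 0.28) and Scd1 by -0.27 (SE 0.39), none of them called. The Srebf2 means were 0.74 and 0.75 on the probe read, with an SD of 1.03 in resistant EC. Dimmer probes were called higher for Srebf2 (0.57, SE 0.21), Acaca (1.09, SE 0.23), Insig2 (0.90, SE 0.27), Nsdhl (0.60, SE 0.18) and Hsd17b7 (0.57, SE 0.22), none of which was called on the probe read. With quantile scaling 6 of the 14 calls were kept (Insig1, Srebf1, Lss, Dhcr7, Tm7sf2 and Sc5d), and with the deposited values 5 (all of these but Sc5d). Without sensitive mouse 2 there were 9 members called, and likewise 9 without resistant mouse 4. Fasn was called higher with quantile scaling (0.91) and in the deposited values (0.67).

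Between sensitive and vehicle EC, which were hybridised on the same slide, no member was called and no feature of the 40712 tested was called (0%). With limma 1469 features and 1 member had an unadjusted p under 0.05. That member was Stard4, which was higher by 0.57 (SE 0.18) with all 4 sensitive arrays above all 4 vehicle arrays. The other members differed by -0.30 (Fasn) to 0.26 (Idi1), and the sterol median was 0.07 and the fatty acid median 0.02. Insig1 differed by 0.11 and Srebf1 by 0.06.

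**Figure D3:**
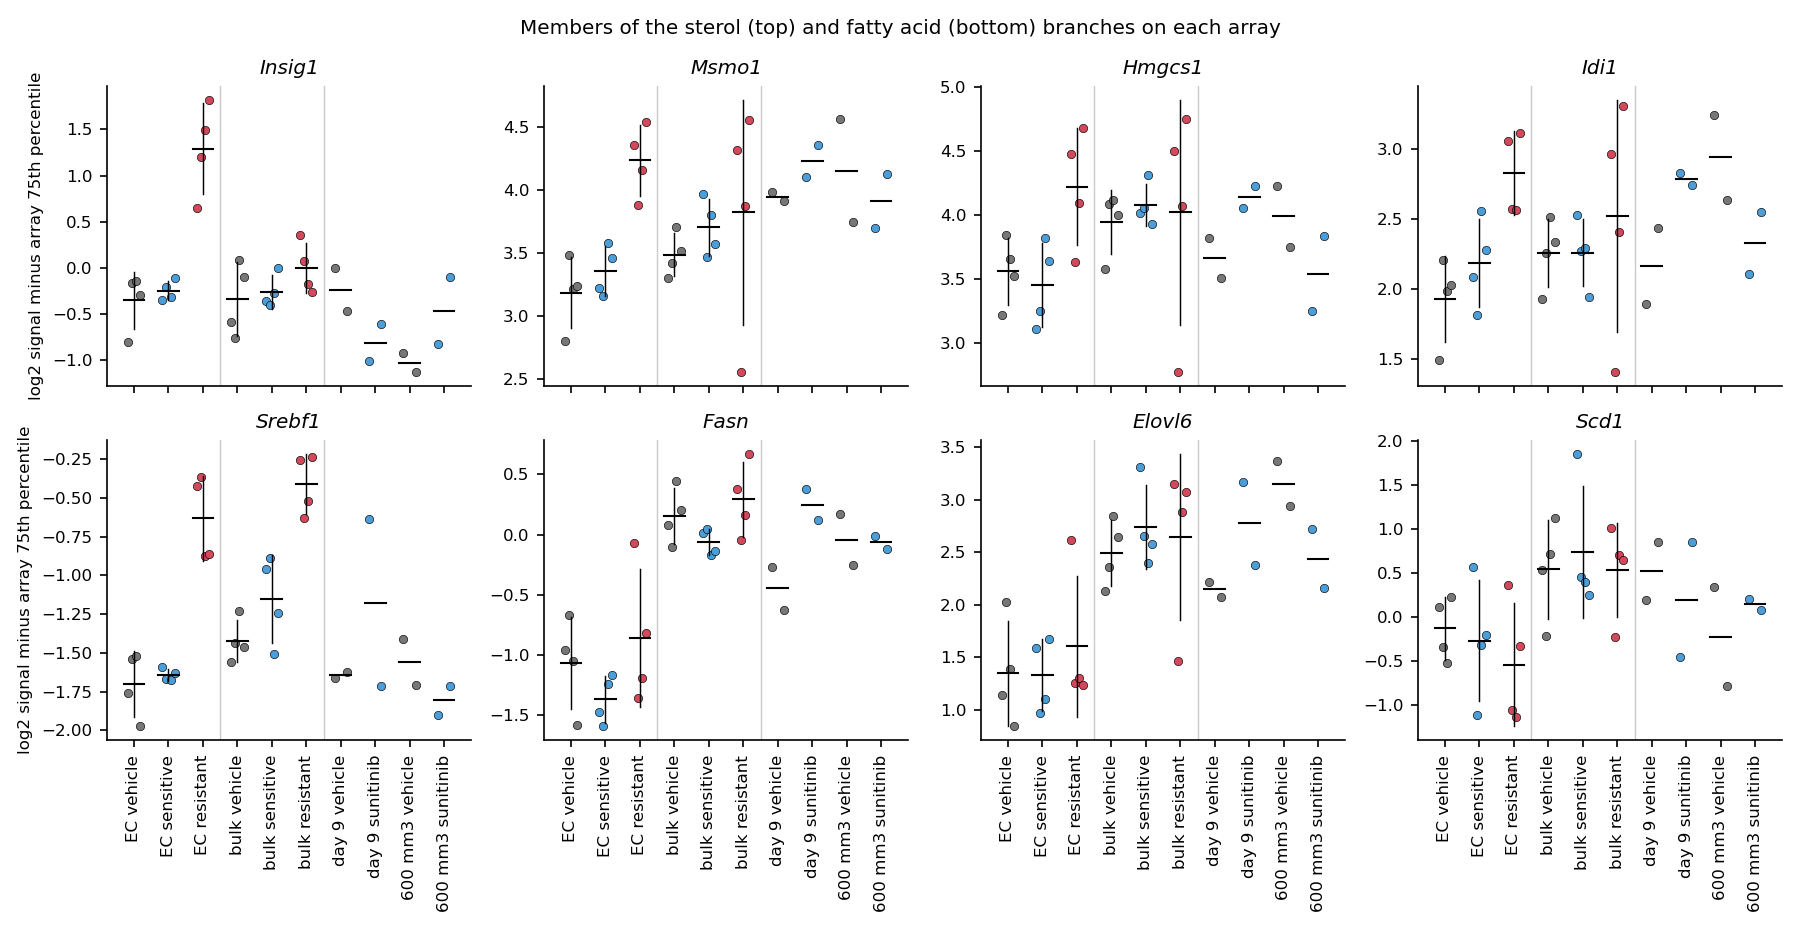
Levels of 8 members on each of the 32 arrays, as log2 signal minus the array's 75th percentile, by group; points are arrays, long bars are means and vertical lines are ± SD for groups of 4. Insig1 is high on all 4 resistant EC arrays (0.65 to 1.82), Srebf1 is high on resistant arrays of both fractions, bulk resistant mouse 2 is the low point of Msmo1, Hmgcs1 and Idi1, and Fasn and Elovl6 lie lower in EC than in bulk.

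In the bulk fraction the resistant tumours showed few such calls. Against vehicle, Srebf1 alone was called, at 1.01 (SE 0.20, limma adjusted p = 0.0068), where 1.82% of all 36989 features were called higher and 9.97% lower (11.8% in all), and 2.4% of those well above background on every bulk array were called higher. Its levels were -0.26, -0.63, -0.52 and -0.23 in resistant and -1.56, -1.43, -1.23 and -1.46 in vehicle bulk, without overlap. With the replicate number as a block, with quantile scaling and in the deposited values, the call of Srebf1 in bulk was lost. Insig1 differed by 0.34 (SE 0.24) and overlapped between groups, at 0.35, 0.08, -0.17 and -0.26 in resistant and -0.59, -0.76, 0.09 and -0.10 in vehicle bulk. The median was 0.11 for sterol and 0.15 for fatty acid members.

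Against sensitive bulk tumours, Srebf1 (0.74, SE 0.20) and Dhcr7 (0.79, SE 0.20) were called higher, where 2.99% of all features were (16.5% in either direction). Of the features well above background on every bulk array, 4.19% were called higher. Without any 1 of 6 of the 8 arrays compared, none or 1 of Srebf1 and Dhcr7 was called. Dhcr7 was 0.64, 0.31, 0.33 and 0.85 in resistant and -0.15, -0.38, -0.23 and -0.26 in sensitive bulk. Between sensitive and vehicle bulk no member was called and 0% of features were; 2 members and 1730 features had an unadjusted limma p under 0.05.

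Bulk resistant mouse 2 weighed on these counts. It was the lowest of its group for 26 of 32 members, among them all 9 fatty acid members, and the highest for 3. Marker means on it were -1.06 for adipocytes against -4.83 to -4.56 on the other 3 arrays, -1.53 for secretory mammary epithelium against -3.82 to -3.26, 2.00 for fibroblasts against 3.27 to 3.58 and 1.38 for the cell cycle against 2.34 to 2.64, and their part in the members' values was not tested. Hmgcs1 was 2.77 on it against 4.49, 4.07 and 4.75 on the other 3 arrays, Msmo1 was 2.55 against 4.32, 3.87 and 4.56, and Sqle was 1.94 against 3.56, 3.14 and 4.03. Without this mouse 9 members were called against vehicle, 8 higher and 1 lower, while 9.46% of all features were then called higher and 37.3% lower. Srebf1 was 1.08, Scd2 0.97, Me1 0.85, Msmo1 0.76, Insig2 0.68, Dhcr7 0.64, Idi1 0.64 and Aacs 0.51, and Srebf2 was -0.72. Against sensitive tumours, 9 members were again called without it, 8 higher and Ebp lower (-0.64). Of all features, 11.5% were then called higher and 41.6% lower, 53.1% in all. The medians against vehicle without it were 0.23 for sterol and 0.51 for fatty acid members.

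The next comparison set the EC fraction against the bulk fraction of the same mice. Fatty acid genes were lower in EC: 8 of 9 members were called lower over the 12 mice, by 0.33 to 1.23 on the log2 scale, where 16.8% of 42197 features were called lower, 18.1% higher and 34.9% in all. Of the 19116 features well above background on every array, 29.2% were called lower and 21.9% higher. Sterol genes were divided, with 9 of 23 called lower and 3 higher. The median difference was -0.74 for fatty acid members and -0.18 for sterol members, against 0.04 for all features. Without resistant mouse 2, 25 members were called, 20 lower and 5 higher, with medians of -0.81 for fatty acid and -0.24 for sterol members. No share over all features is given for that fit, so its count has no background beside it. These fractions shared a slide only in the resistant mice.

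Fasn had the largest difference, 2.34-fold lower in EC (-1.23, SE 0.14, limma adjusted p = 9.80e-05), and was lower in EC in 12 of 12 mice, by between 0.46 and 1.78. Its levels were 0.08, -0.11, 0.44 and 0.21 in vehicle bulk against -0.96, -0.67, -1.05 and -1.58 in vehicle EC. Elovl6, which lengthens palmitate, was 2.29-fold lower (-1.20, SE 0.18) and lower in 12 of 12 mice. Scd1 was 1.89-fold lower (-0.92, SE 0.15), also in 12 of 12 mice. Scd2 (-0.76), Me1 (-0.74), which supplies NADPH, Acaca (-0.69), the acetyl-CoA carboxylase, and Aacs (-0.66), which activates acetoacetate, were each lower in 11 of 12 mice. Srebf1 was lower by 0.33 (SE 0.11), also in 11 of 12. The call of Srebf1 was kept in 4 of 12 fits that each left out a mouse. Acly alone went the other way, higher in EC by 0.60 (SE 0.14) in 11 of 12 mice.

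Among sterol members, Fdft1, the squalene synthase, was lower in EC by 0.80 (SE 0.12) on the probe read and Dhcr7 by 0.55 (SE 0.11), each in 12 of 12 mice. Scap was lower by 0.84 (SE 0.11), Fdps by 0.70 (SE 0.11) and Hsd17b7, a sterol ketone reductase, by 0.46 (SE 0.12), each in 11 of 12 mice. Lss (-0.75), Insig2 (-0.53), Nsdhl (-0.37), a sterol dehydrogenase, and Sc5d (-0.32) were called lower as well, of which Sc5d kept its call in 2 of 12 fits that each left out a mouse. The members called higher in EC were Stard4 (0.66, SE 0.13), in 11 of 12 mice, Srebf2 (0.87, SE 0.24), in 10 of 12, and Insig1 (0.43, SE 0.15), in 7 of 12. The call of Insig1 was kept in 2 of 12 fits that each left out a mouse. Sqle (-0.41), Hmgcs1 (-0.27) and Msmo1 (-0.08) were not called.

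With the mean of a gene's probes, 16 of the 21 members called in this comparison kept their call. As the mean of their probes, Fdft1 was -0.056 and Srebf2 0.059, neither called. Different probes of a gene were called in opposite directions in this comparison for Srebf2 and Acaca. A dimmer probe of Srebf2 was called lower in EC, at -0.75 (SE 0.12), and a dimmer probe of Acaca was called higher, at 0.76 (SE 0.21). A further dimmer probe of Acaca was called lower, at -1.27. The direction of Srebf2 and of Acaca between fractions therefore depended on the probe read. The lower level of Fdft1 in EC likewise rested on the probe read, as its 2 probes averaged -0.056. Among the 12 members with more than 1 probe, the remaining 10 had no probes called in opposite directions in any comparison made here.

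Within each treatment the fatty acid members kept their side. Their median was -0.73 in vehicle, -0.83 in sensitive and -0.65 in resistant mice, and Fasn was called lower in each (-1.22, -1.30 and -1.15), as was Elovl6 (-1.15, -1.41 and -1.04). The median of sterol members was -0.36 in vehicle, -0.42 in sensitive and 0.20 in resistant mice. In all, 7 members were called lower and none higher in vehicle mice, where 5.47% of features were called lower, 9.13% higher and 14.6% in all. In sensitive mice 12 were called lower and 1 higher, where 9.31% of features were lower and 9.59% higher, 18.9% in all. In resistant mice 3 were called lower and 4 higher, where 6.87% and 6.91% of features were, 13.8% in all. Of the 19116 features well above background on every array, 11.3% were called lower and 8.31% higher in vehicle mice. In sensitive mice 19% and 11% of them were, and in resistant mice 8% and 13%. The member counts of resistant mice lay near these last shares. The call of Elovl6 in resistant mice was kept in 3 of 12 fits that each left out a mouse, and that of Acly in 4 of 12. In sensitive mice the call of Hmgcs1 was kept in 1 of 12 and that of Aacs in 3 of 12. The members higher in resistant EC were Insig1 (1.29, SE 0.26), Stard4 (0.87, SE 0.23), Acly (0.87) and Ebp (0.80, SE 0.20), while Insig1 differed by -0.01 in vehicle and 0.01 in sensitive mice.

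**Figure D4:**
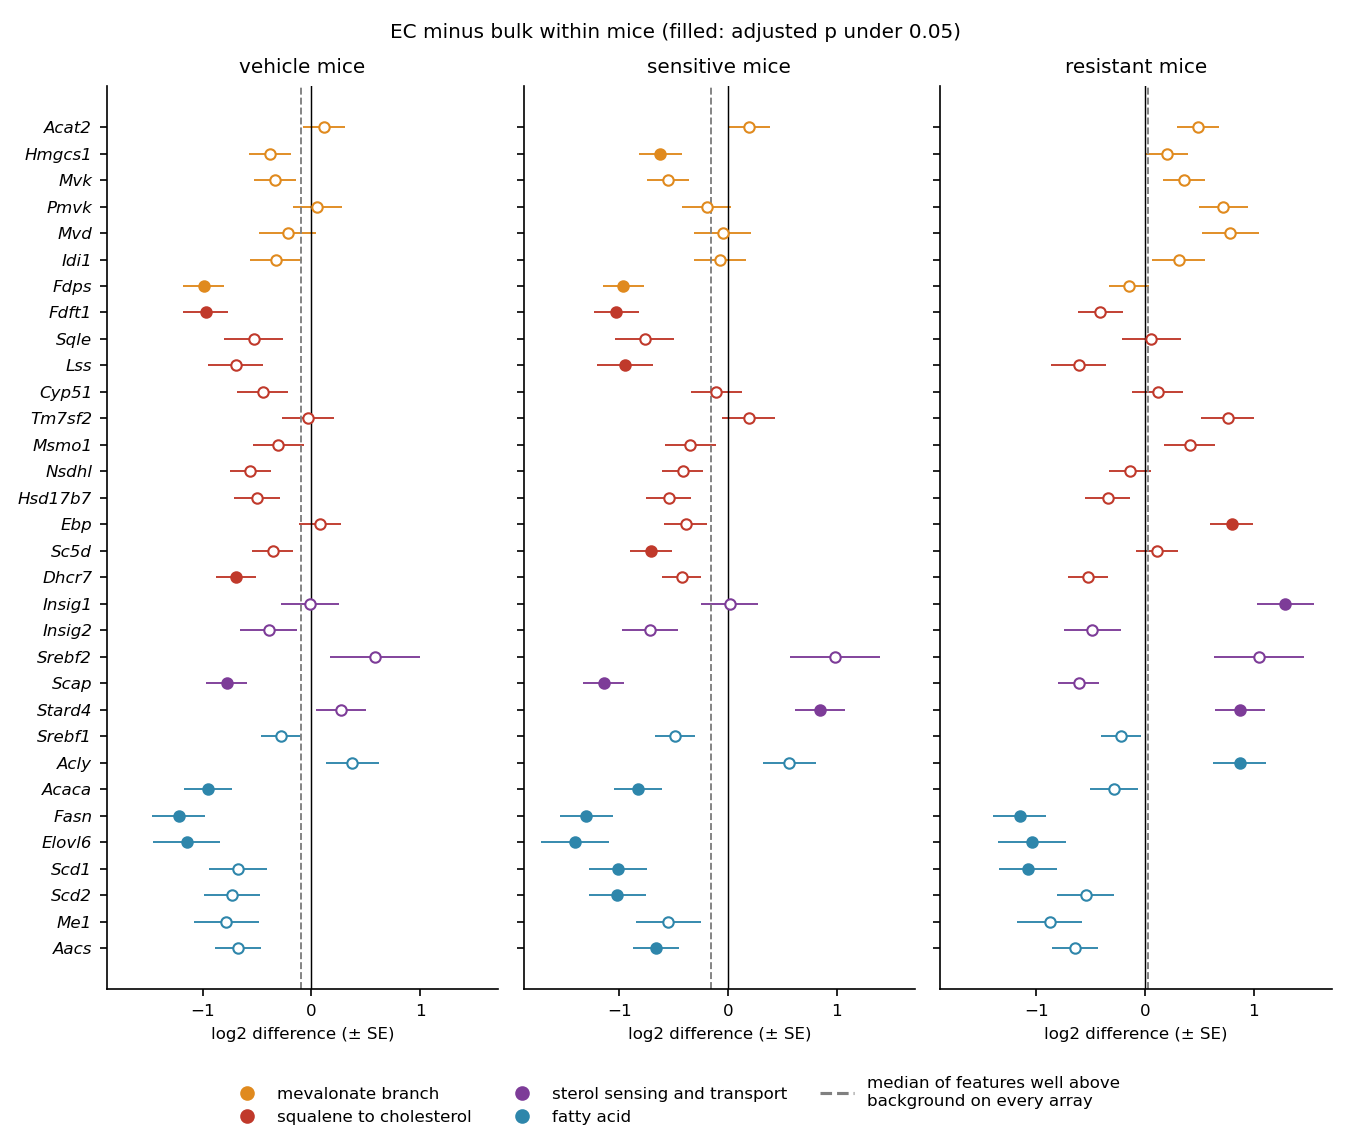
Log2 differences (± SE) between the EC and bulk fractions of the same mice, by treatment, for the 32 members; filled points have an adjusted p under 0.05, and the dashed line is the median of the features well above background on every array. Fasn and Elovl6 are filled and negative in each panel, and most sterol members lie to the right in resistant mice relative to the other 2 panels.

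Without resistant mouse 2, the sterol median of resistant mice was -0.023 in place of 0.20, and 11 members were called, 3 higher and 8 lower, and 13 members were then called in vehicle mice. Without resistant mouse 1, 12 members were called in resistant mice, and without resistant mouse 3 or 4 none was. Without vehicle mouse 2, 4 or 5, the members called in vehicle mice were 2, 1 and 1. Without sensitive mouse 2, 3, 4 or 5, those called in sensitive mice were 4, 4, 6 and 7. No shares over all features are given for these fits, so their counts have no background beside them. The resistant mice alone, whose 8 arrays share 1 slide, gave no member called when fitted without the other groups, where 1235 of 26100 features were called.

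Whether resistance went with a larger difference in EC than in bulk was tested as an interaction, the EC minus bulk difference in resistant mice less that in vehicle mice. No member was called, where 0.299% of 42197 features were and 0.0118% were called higher, and 6 of 32 members had an unadjusted limma p under 0.05, all of them positive. In either direction, 7099 of the 42197 features had such a p, so the member count lay near the share over all features. The median of sterol members was 0.58, with 22 of 23 positive, and that of fatty acid members was 0.07, against -0.30 for all features and 0.16 for those well above background on every array. The shares of features with a positive difference, with or without such a p, were not computed. Insig1 was 1.30 (SE 0.37, limma adjusted p = 0.145), Mvd 1.00 (SE 0.37) and Fdps 0.84 (SE 0.26). Without resistant mouse 2 the sterol median was 0.39 and the fatty acid median -0.11. The same test for sensitive mice called no member and 0% of features, with no member at an unadjusted p under 0.05, and gave a sterol median of -0.05 and a fatty acid median of -0.08.

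The smaller bulk tumours gave no calls among the members. Between sunitinib and vehicle, over day 9 and 600 mm3 together, 0% of 38949 features were called, 2773 features and no member had an unadjusted limma p under 0.05, and the medians were -0.01 for sterol and 0.05 for fatty acid members. Insig1 was -0.00 and -0.47 on the day 9 vehicle arrays, -1.01 and -0.61 on the day 9 sunitinib arrays, -0.93 and -1.13 on the 600 mm3 vehicle arrays and -0.83 and -0.10 on the 600 mm3 sunitinib arrays. Its groups overlapped. Srebf1 was -0.64 on 1 day 9 sunitinib array and between -1.90 and -1.41 on the other 7 arrays.

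Between 600 mm3 and day 9, 2.48% of features and no member were called, and 3 members had an unadjusted limma p under 0.05. The vehicle tumours of 1300 mm3 were compared with the 4 smaller vehicle tumours on another slide, and 4.99% of 43447 features and no member were called, with 1 member at an unadjusted limma p under 0.05. That member, Stard4, lay between -0.05 and 0.63 in the larger tumours and between 1.07 and 1.62 in the smaller ones, without overlap and without a call. The slide and the size cannot be told apart there.

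Genes next to these pathways were read from lists of named genes. In resistant against vehicle EC, 7 of 18 genes of isoprenoid and sterol processing were called higher and 1 lower. The shares called higher and lower were 15.5% and 43.2% of all features, and 29.5% and 15.4% of those well above background on every EC array. They included Ch25h (1.52, SE 0.36), which hydroxylates cholesterol, Mbtps2 (0.97, SE 0.17), the protease that frees SREBP from the membrane, and Erg28 (0.93, SE 0.17), a scaffold of sterol demethylation. The gene called lower, Prkaa2, was not well above background on any resistant EC array. Of 14 genes of sterol efflux, storage and uptake, 6 were called higher and none lower, among them Soat1 (1.17, SE 0.34), which esterifies cholesterol, Abcg1 (0.99, SE 0.29), a sterol exporter, and Lipa (0.89, SE 0.27), the lysosomal lipase.

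In the list of fatty acid elongation, activation and glycerolipids, 8 of 21 genes were called higher in resistant EC and 2 lower. Acsl1 (1.19, SE 0.35), which activates fatty acids, Fabp5 (1.01, SE 0.22), a fatty acid carrier, and Mid1ip1 (0.86, SE 0.22), an activator of acetyl-CoA carboxylase, were the highest. Fads2, a desaturase, fell by 1.00 (SE 0.18). Of 13 fatty acid oxidation genes, 4 were called higher and 2 lower, of which Ppara fell by 2.06 (SE 0.17). The oxidation counts lay near the 29.5% higher and 15.4% lower of features well above background on every EC array. Over all features these shares were 15.5% and 43.2%. The median differences of the 4 lists were 0.31, 0.43, 0.39 and 0.47 in the order given, against 0.28 for the features well above background on every EC array.

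Between fractions, 9 of 14 genes of sterol efflux, storage and uptake were called higher in EC and 1 lower, with a median of 1.02. Of all features 18.1% were called higher and 16.8% lower, and of those well above background on every array 21.9% and 29.2%. Cd36 (3.97, SE 0.23), a fatty acid receptor of capillary endothelium and macrophages, Abca1 (2.58, SE 0.21) and Abcg1 (2.50, SE 0.16) led the list. The macrophage markers given above were higher in EC as well, and their part in this was not tested. In the isoprenoid list 2 of 18 were called higher and 7 lower, in the elongation list 7 of 21 higher and 6 lower, and in the oxidation list 3 of 13 higher and 4 lower.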

How the data were processed

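RNA of 32 samples was hybridised to Agilent 1-colour arrays. The deposited scanner files hold spot intensity (gProcessedSignal, background-subtracted, Agilent Feature Extraction 10.7.3.1 per the file headers), and the authors' table of normalized intensity served as an alternative. Per array, log2 intensity minus the 75th percentile was taken over 55681 probes (59305 spots), after leaving out spots flagged as outliers. Accessions named 26582 probes through RefSeq (GRCm38.p6). Each comparison tested 1 probe a gene and every unnamed probe, if well above background on at least 4 arrays (2 in fits with the smaller tumours), with limma 3.58.1 in R 4.3.3, fitted per fraction over its groups. EC against bulk used the mouse as a block, since the labels give both fractions of a mouse. Same-numbered mice of different treatments did not deviate together throughout and were not paired. In the smaller tumours same-numbered arrays correlated at 0.21 (day 9) and 0.18 (600 mm3). The limma script was tested on simulated data. Members and lists were chosen with earlier results of these data known. Values are given for up to 6 called members per comparison with the largest difference, for Insig1, Hmgcs1, Sqle, Srebf1, Srebf2, Fasn, Scd1 and Scd2, and for up to 3 called genes a direction from each other list; values of further members are given to account for all 32. The number of arrays limits the precision. Alternatives are in the closing section.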

Additional observations from a re-analysis of the deposited data

Results flagged for a closer look

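In groups of 4, one array lay far from the other 3, beyond Dixon's critical value, in 10 of 204 groups of member values examined, and chance alone flags about 1 in 20. In bulk resistant tumours these were Hsd17b7 at -1.29 in mouse 3 (nearest array -0.58), Ebp at 4.24 in mouse 4 (nearest 4.61) and Elovl6 at 1.47 in mouse 2 (nearest 2.88). In bulk sensitive tumours they were Sc5d at 1.89, Acly at 4.81 and Scd1 at 1.85 in mouse 2, and Scd2 at 5.57 in mouse 3. In the EC fraction they were Elovl6 at 2.61 in resistant mouse 1, where the nearest array was 1.30, Me1 at 0.32 in sensitive mouse 3, where the nearest was 1.09, and the mean of sterol members at 0.96 in vehicle mouse 2, where the nearest was 1.38. No member's treatment effect was called different between the EC and bulk fractions.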

How the results depend on the processing

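The alternatives were quantile scaling, normexp background correction (offset 50, on the median signals), the authors' deposited values, no filter, a filter on every array, the mean of a gene's probes, the replicate number as a block, 1 slide alone, each array left out and, chosen after seeing the data, named genes alone. For resistant EC against vehicle, the sterol median was 0.37 in the deposited values, and the fatty acid median was 0.13 with quantile scaling and 0.13 in the deposited values. For resistant against sensitive EC, 9 members were called with quantile scaling and 8 in the deposited values, with sterol medians of 0.30 and 0.35 and a fatty acid median of 0.048 with quantile scaling. Of 40712 features 18846 and 18288 were called there, against 23999 in the main fit. For resistant against vehicle bulk, 4 were called with quantile scaling (2 higher, 2 lower) and 3 in the deposited values, and 0 with the replicate block. Of 36989 features 7615, 7612 and 1794 were called there, against 4362 in the main fit. For resistant against sensitive bulk, 1 was called after normexp, 1 with no filter and 0 with the replicate block. The features called were 5253 of 36989, 4777 of 49244 and 2653 of 36989, against 6111 of 36989 in the main fit. With the replicate block, whose numbers did not pair the mice of different treatments, Srebf2 became 0.36 and Fasn -0.11 against vehicle EC and Srebf2 0.54 against sensitive EC, none of them called, and Scd2 lost its call against sensitive EC (0.61). It changed no call in the smaller tumours. Without the mouse as a block, Scd1 lost its call between EC and bulk in sensitive and resistant mice, and Elovl6 in resistant mice. Srebf2 was also 0.28 against sensitive EC as the mean of its probes. Between EC and bulk, vehicle mice gave 12 called with quantile scaling and 12 after normexp. They gave 13 in the deposited values and 13 with the filter on every array. In this order 7994, 7597 and 9774 of 42197 features and 6365 of 19116 were called, against 6161 of 42197 in the main fit. Sensitive mice gave 20 with that filter, where 8440 of 19116 features were called, against 7976 of 42197 in the main fit. Resistant mice gave 14 after normexp, 13 in the deposited values and 16 with that filter. They gave 14 with named genes alone and 0 on 1 slide alone. The features called were 10881 and 8571 of 42197, 6683 of 19116, 4909 of 18280 and 1235 of 26100, against 5817 of 42197 in the main fit. The sterol median of the resistant interaction was 0.37 in the deposited values. For 1300 mm3 against smaller tumours, 1 was called after normexp, in the deposited values and with the filter on every array. The features called were 3722 and 4998 of 43447 and 3335 of 21921, against 2167 of 43447 in the main fit.

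With each array left out, the members called ranged from 9 to 15 (resistant against sensitive EC), 1 to 9 (resistant against vehicle bulk), 0 to 9 (resistant against sensitive bulk), 1 to 13, 4 to 18 and 0 to 12 (EC against bulk in vehicle, sensitive and resistant mice) and 0 to 2 (1300 mm3 against smaller). Shares over all features are given only for the fits without bulk resistant mouse 2, so the other counts have no background beside them. The sterol median of resistant mice between fractions ranged from -0.023 to 0.29. Against vehicle EC, Srebf2 ranged from -0.48 to 0.30 and Fasn from -0.059 to 0.37, and against sensitive EC Srebf2 ranged from -0.29 to 0.48 and Scd1 from -0.57 to 0.0060. Over all results, 100 of 121 counts and 235 of 242 medians under whole-array alternatives kept within 1.5 times or within 1 SD of the spread between arrays. Counts of 0 that stayed 0 are among those kept and say nothing of stability. Of 438 differences of single members under these alternatives, 49 lost their call, 12 gained one and 4 changed sign. No slide block could be fitted for resistant groups or for tumour size, and no replicate block for 600 mm3 against day 9, where the number fixes the time. All members were well above background on 32 of 32 arrays. Their mean levels ran from -1.36 (Acat2) to 4.88 (Ebp), so the dimmer members lay nearer to background than the brighter ones.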
